A study of Mus musculus with 24 samples.

Results

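MHC class II molecules carry peptides from ingested protein to the cell surface, where CD4+ T cells read them. The 7 genes followed here are the core of this pathway and were chosen by function: H2-Aa and H2-Ab1, the α and β chain of the I-A molecule, H2-Eb1, the β chain of I-E, Cd74, the invariant chain that escorts new class II dimers, H2-DMa and H2-DMb1, the chains of the peptide-loading chaperone H2-DM, and Ciita, the transactivator that switches the others on. A gene was measured by the array probe set that carries its symbol alone and, of several, by the one with the highest mean over all arrays. That left 6 of the 7 members, of 19938 genes measured in this way, each with 1 probe set. The probe set of H2-DMb1 is shared with its neighbor H2-DMb2, so no value is given for it.

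The livers came from 24 male mice of 24 weeks on a C57Bl6 background, 8 per genotype. In alb-SREBP-1a∆P mice, as in those of the alb-SREBP-1a line, the albumin promoter drives the HA-tagged N-terminal, transcriptionally active domain of human SREBP-1a in hepatocytes, and in alb-SREBP-1a∆P its MAPK phosphorylation sites are mutated. C57Bl6 mice are the wild type, and all mice were male litter mates kept on regular chow. Each whole-liver RNA was hybridized to 1 Mouse Gene 1.0 ST array. The values are RMA signals on the log2 scale, so that a difference of 1 is a doubling of the signal. The number of arrays limits their precision, and signals of different probe sets are not compared with each other. Whether the replicates are independent litters or cages is not given in the sources used here.

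In liver, class II is found on Kupffer cells, dendritic cells, B cells and, in inflammation, on other cells, while resting hepatocytes carry little of it. Bulk RNA cannot tell a change in the number of such cells from a change in RNA per cell. All 6 hepatocyte markers lay above the median signal of all probe sets, and their summed signal (log2) was 15.87 to 16.03 in alb-SREBP-1a∆P, 15.96 to 16.19 in alb-SREBP-1a and 16.09 to 16.25 in C57Bl6. The highest correlation between 2 arrays was 0.990, so none looked like a sample deposited again. alb-SREBP-1a∆P replicate 4 stood apart on the first principal component, with a score of 15.7 against 55.0 to 90.3 in the other 7 alb-SREBP-1a∆P arrays. The signals also spread less in alb-SREBP-1a∆P: their SD over all probe sets was 2.02 to 2.09 in alb-SREBP-1a∆P, 2.14 to 2.23 in alb-SREBP-1a and 2.18 to 2.25 in C57Bl6. Each member is therefore set beside the probe sets in its own brightness bin, 1 of 10 equal bins by mean signal over all arrays.

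Class II genes share a compact upstream control region. In it the RFX complex binds the X box, CREB the X2 box and NF-Y the Y box, and CIITA docks on the complex without binding DNA itself. RefSeq promoters (GRCm38.p6) were matched for 4 members, of which H2-DMa had 2 start sites. H2-Ab1, Cd74 and Ciita were not matched. The 120 bases before the start site are shown 5′ to 3′ for the 4 matched genes, with the first start site alone for H2-DMa. H2-Aa and H2-Eb1 encode chains of the peptide groove, and H2-DMb1 and H2-DMa those of the chaperone. The calls of H2-Aa and H2-Eb1 between the transgenic lines, given below, were both lost with quantile normalization and with cyclic loess. As H2-DMb1 also has no value, the sequences are not read against the signals. Capitals mark the Y-box letters GATTGG, the letters GNAAC of an X-box core upstream of them, and the palindrome TGACGTCA, all letters that were chosen after the sequences had been seen.
H2-Aa, chr17:34287824-34287943, minus strand: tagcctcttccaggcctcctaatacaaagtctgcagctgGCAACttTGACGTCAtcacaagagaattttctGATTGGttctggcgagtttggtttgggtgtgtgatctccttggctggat
H2-Eb1, chr17:34305747-34305866, plus strand: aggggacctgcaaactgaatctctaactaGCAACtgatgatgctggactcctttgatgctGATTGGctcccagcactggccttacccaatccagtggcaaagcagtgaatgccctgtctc
H2-DMb1, chr17:34153071-34153190, plus strand: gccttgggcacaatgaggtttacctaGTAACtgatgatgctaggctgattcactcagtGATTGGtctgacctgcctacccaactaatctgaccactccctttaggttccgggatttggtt
H2-DMa, chr17:34122712-34122831, plus strand: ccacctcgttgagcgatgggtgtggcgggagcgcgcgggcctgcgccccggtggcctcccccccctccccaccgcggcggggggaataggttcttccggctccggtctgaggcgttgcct

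3 of these windows hold the ordered pair GNAAC and GATTGG on the strand of the gene, counted back from the start site as negative positions. The pair began at -81 and -49 in H2-Aa with 27 bases between, at -91 and -60 in H2-Eb1 with 26 bases between, and at -94 and -62 in H2-DMb1 with 27 bases between. H2-Aa alone holds TGACGTCA, at -74, which overlaps neither motif. H2-Eb1 has a further GATTGG on the opposite strand at -35. On both strands of all 32851 RefSeq promoter windows of this length, GATTGG was found in 9.67%, GNAAC in 52.9% and TGACGTCA in 1.24%. GNAAC followed by GATTGG after 20 to 35 bases was found in 0.451%. The sterol regulatory element letters TCACNCCAC were in none of the windows searched for H2-Aa, H2-Eb1, H2-DMb1 and both start sites of H2-DMa, and in 0.511% of all windows. Such matches describe letters and are not measured binding.

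The 3 chains that form the peptide groove, the invariant chain and H2-DMa were all higher in alb-SREBP-1a liver than in C57Bl6 liver, by 1.54-fold to 2.25-fold, while Ciita was not. In the limma fit over all 35556 probe sets (Benjamini-Hochberg adjusted p under 0.05), 5 of 6 members rose, none fell and 1 did not pass. Over all probe sets 10.8% passed, 6.77% higher and 3.98% lower. The median log2 difference was 0.73 over the members and 0.01 over all probe sets.

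Cd74 had the largest difference. Its protein blocks the peptide groove until the dimer reaches the endosome. The Cd74 signal ran from 7.80 to 8.48 with a median of 8.30 in alb-SREBP-1a∆P, from 8.17 to 9.01 with a median of 8.64 in alb-SREBP-1a, and from 7.33 to 7.61 with a median of 7.41 in C57Bl6. Every array of either transgenic line lay above every C57Bl6 array. Such full separation upward was seen in 5.34% of all probe sets for alb-SREBP-1a∆P and in 2.03% for alb-SREBP-1a. Cd74 was 1.17 ± 0.11 log2 units (SE) higher in alb-SREBP-1a than in C57Bl6 (adjusted p = 3.39e-06, limma, n = 8 each), a 2.25-fold difference.

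H2-Aa and H2-Ab1 encode the chains of I-A. H2-Aa ran from 7.48 to 7.89 (median 7.66) in alb-SREBP-1a∆P, from 7.63 to 9.06 (median 8.21) in alb-SREBP-1a and from 7.30 to 7.76 (median 7.61) in C57Bl6. H2-Ab1 ran from 7.17 to 7.67 (median 7.55) in alb-SREBP-1a∆P, from 7.57 to 8.77 (median 8.15) in alb-SREBP-1a and from 7.08 to 7.74 (median 7.42) in C57Bl6. For either chain 7 of 8 alb-SREBP-1a arrays lay above all C57Bl6 arrays, and replicate 1 was the exception. The alb-SREBP-1a∆P arrays overlapped the C57Bl6 arrays. Against C57Bl6, alb-SREBP-1a was higher by 0.63 ± 0.16 log2 units for H2-Aa (adjusted p = 0.0162, limma) and by 0.73 ± 0.15 for H2-Ab1 (adjusted p = 0.00385, limma).

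H2-Eb1 encodes the β chain of I-E, the second class II molecule. It ran from 7.04 to 7.78 (median 7.64) in alb-SREBP-1a∆P, from 7.40 to 8.44 (median 7.89) in alb-SREBP-1a and from 7.07 to 7.38 (median 7.18) in C57Bl6. The C57Bl6 arrays were exceeded by all 8 arrays of alb-SREBP-1a and by 7 of 8 of alb-SREBP-1a∆P, whose replicate 6 lay below them all. The difference between alb-SREBP-1a and C57Bl6 was 0.73 ± 0.12 log2 units (adjusted p = 0.000694, limma). H2-Ea, the α chain that H2-Eb1 pairs with, is not made in mice of the C57BL/6 strain, so I-E is not expressed at the surface on this background.

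H2-DMa, which exchanges the invariant chain remnant for peptide, ran from 6.15 to 6.67 (median 6.35) in alb-SREBP-1a∆P, from 6.20 to 6.92 (median 6.37) in alb-SREBP-1a and from 5.43 to 6.29 (median 5.58) in C57Bl6. The 2 transgenic lines lay side by side, and 7 of the 8 C57Bl6 arrays lay below both. C57Bl6 replicate 3, at 6.29, reached into them. The difference was 0.75 ± 0.12 log2 units in alb-SREBP-1a against C57Bl6 (adjusted p = 0.000774, limma), and 0.84 without that array.

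Ciita ran from 5.63 to 6.23 (median 5.85) in alb-SREBP-1a∆P, from 5.00 to 5.85 (median 5.44) in alb-SREBP-1a and from 5.42 to 5.90 (median 5.60) in C57Bl6. All 3 genotypes overlapped, with 4 of 8 alb-SREBP-1a arrays below all C57Bl6 arrays. The difference of -0.20 ± 0.11 log2 units in alb-SREBP-1a against C57Bl6 did not pass (adjusted p = 0.262, limma). Its direction was opposite to that of the other 5 members.

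**Figure D1:**
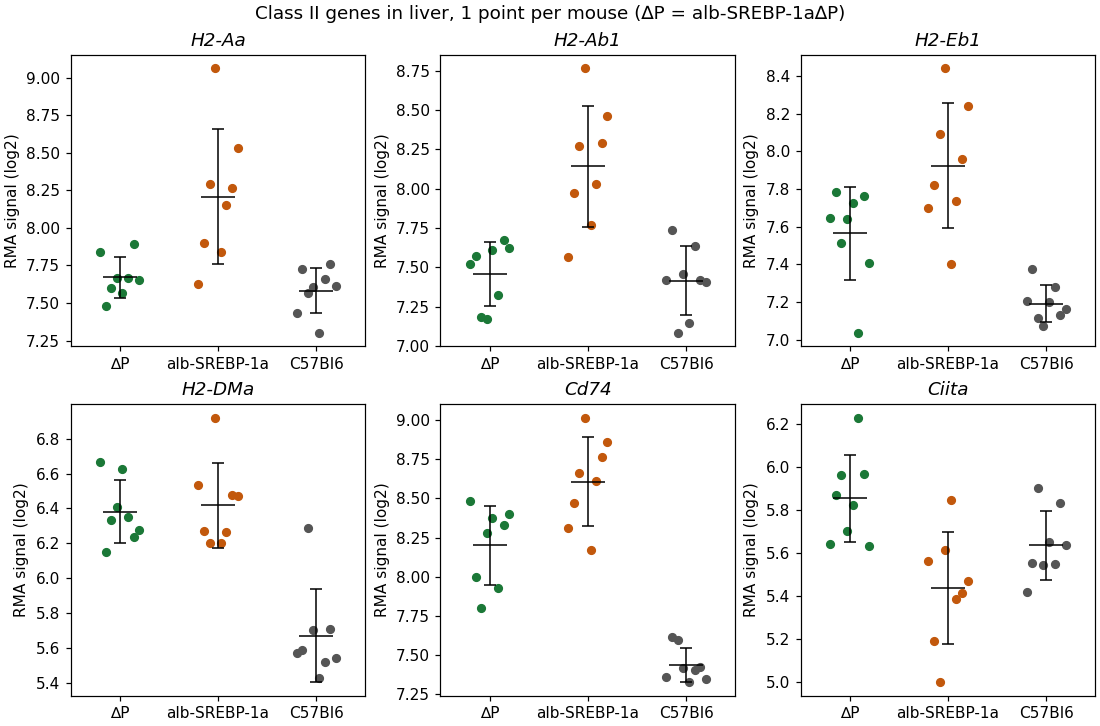
RMA signal (log2) of the 6 measured class II genes in each of 8 mice of alb-SREBP-1a∆P (∆P), alb-SREBP-1a and C57Bl6, where bars are the mean ± SD. In alb-SREBP-1a the Cd74 points all lie above the C57Bl6 points, and Ciita is the gene whose mean is lowest in alb-SREBP-1a.

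The count of 5 members stood in alb-SREBP-1a against C57Bl6 under each other normalization, variance model and test tried and with any 1 array left out. With replicates 1 and 2 of alb-SREBP-1a left out together, 5 members again rose.

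In alb-SREBP-1a∆P liver the members split. Cd74 and H2-DMa stayed above C57Bl6, H2-Eb1 was slightly above it, and the I-A chains were not distinguishable from it. 3 of 6 members rose and 3 did not pass, beside 47.2% of all probe sets called, 27.0% higher and 20.2% lower. The median log2 difference was 0.30 over the members and 0.11 over all probe sets. Cd74 was higher by 0.76 ± 0.10 log2 units (adjusted p = 1.62e-05), H2-DMa by 0.71 ± 0.11 (adjusted p = 0.000104) and H2-Eb1 by 0.37 ± 0.10 (adjusted p = 0.00534, all limma). H2-Aa differed by 0.09 ± 0.08 (adjusted p = 0.387) and H2-Ab1 by 0.05 ± 0.11 (adjusted p = 0.743). Ciita differed by 0.22 ± 0.10 (adjusted p = 0.0692), where probe sets of its bin had a median of 0.11.

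H2-Aa, H2-Ab1, H2-Eb1 and Cd74 share bin 9, in which the median log2 difference of alb-SREBP-1a∆P against C57Bl6 was -0.29 and 53.3% of probe sets were called lower and 10.5% higher. All 4 members lay above that median. In the bin of H2-DMa the median was -0.04. With quantile normalization H2-Aa rose as well, by 0.25 (adjusted p = 0.0226), and with cyclic loess both I-A chains rose, H2-Aa by 0.35 and H2-Ab1 by 0.30 (adjusted p = 0.00254 and 0.0265, limma). With each array centred on its median, H2-Aa and H2-Ab1 were at -0.073 and -0.11 and H2-Eb1 at 0.21 did not pass (adjusted p = 0.112), while Cd74 and H2-DMa passed under all 3 scalings.

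**Figure D2:**
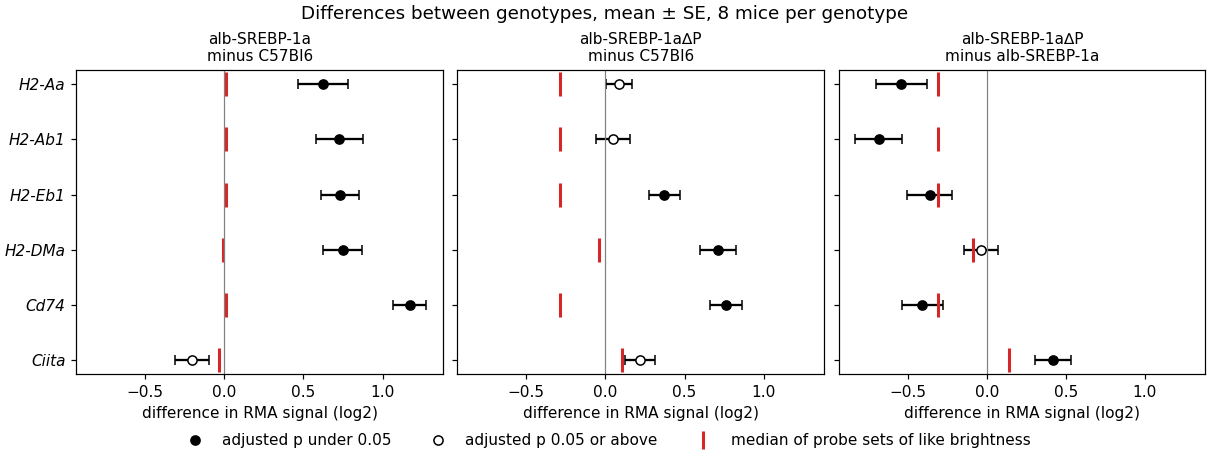
Log2 difference in RMA signal (mean ± SE, 8 mice per genotype) of each class II gene in the 3 comparisons, where filled points passed an adjusted p of 0.05 and red bars are the median of probe sets in the same brightness bin. Cd74 lies at 1.17, 0.76 and -0.41, and H2-DMa at 0.75, 0.71 and -0.04.

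Set directly against each other, the transgenic lines differed in 5 of 6 members: alb-SREBP-1a∆P was lower in H2-Aa, H2-Ab1, H2-Eb1 and Cd74 and higher in Ciita. Over all probe sets 44.2% were called, 22.8% higher and 21.4% lower, and in bin 9, which holds all 4 lower members, 62.3% were called lower and 5.88% higher. The median log2 difference was -0.38 over the members and 0.08 over all probe sets. H2-Ab1 was lower by 0.68 ± 0.15 (adjusted p = 0.00201) and H2-Aa by 0.54 ± 0.16 (adjusted p = 0.0125, limma), with 4 and 3 of 8 alb-SREBP-1a∆P arrays below all alb-SREBP-1a arrays. Cd74 was lower by 0.41 ± 0.13 (adjusted p = 0.0193) and H2-Eb1 by 0.36 ± 0.14 (adjusted p = 0.0479, limma), where the median of their bin was -0.31. H2-DMa differed by -0.04 ± 0.11 (adjusted p = 0.796). Ciita was higher by 0.42 ± 0.12 (adjusted p = 0.00891, limma), with 4 of 8 arrays above all alb-SREBP-1a arrays, beside a median of 0.14 in its bin.

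H2-Ab1 was the member whose call between the lines held under every alternative run. With quantile normalization and with cyclic loess it was the sole member called, at -0.49 and -0.41 (adjusted p = 0.0179 and 0.0457, limma), and with centred arrays the call of Ciita was lost (adjusted p = 0.0708). The call of H2-Eb1 was lost in 11 of the 16 fits that left out 1 array, with an adjusted p of up to 0.0939. The 3 comparisons share genotypes, so that their values are given side by side and not as independent support.

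The I-A chains differed most between mice in alb-SREBP-1a. The SD of H2-Aa was 0.14 in alb-SREBP-1a∆P, 0.45 in alb-SREBP-1a and 0.15 in C57Bl6, and that of H2-Ab1 was 0.20, 0.38 and 0.22 in the same genotypes. Replicate 4 had the highest signal of its genotype for all measured members but Ciita, and replicate 1 or replicate 5 the lowest for these 5. Between the 8 alb-SREBP-1a mice, H2-Aa, H2-Ab1, H2-Eb1 and Cd74 went up and down together, with Pearson's r of 0.89 to 0.98 for the 6 pairs. H2-Aa and H2-Ab1 had r = 0.977 and Spearman's rho = 0.976 (adjusted p = 0.00223 and 0.00893, two-sided exact permutation test, Benjamini-Hochberg over 45 correlations). All 6 pairs passed by r and by rho. Without the 2 arrays farthest from the median of the first gene, r was 0.82 to 0.96 over the 6 mice left.

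In the other genotypes the same 6 pairs were looser, with r of 0.03 to 0.57 in alb-SREBP-1a∆P and 0.15 to 0.64 in C57Bl6, and none passed; the difference in r between genotypes was not tested. H2-DMa went with Cd74 at r = 0.49 in alb-SREBP-1a∆P, 0.62 in alb-SREBP-1a and 0.65 in C57Bl6 (adjusted p = 0.461, 0.316 and 0.316, exact permutation test). For Ciita and the other members the sign of r changed with the pair and the genotype. Its r with Cd74 was -0.72 in alb-SREBP-1a∆P, -0.26 in alb-SREBP-1a and 0.35 in C57Bl6, and its r with H2-DMa was -0.33, 0.35 and 0.69 in the same genotypes. No pair with Ciita passed after adjustment (exact permutation test, 8 mice per genotype).

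**Figure D3:**
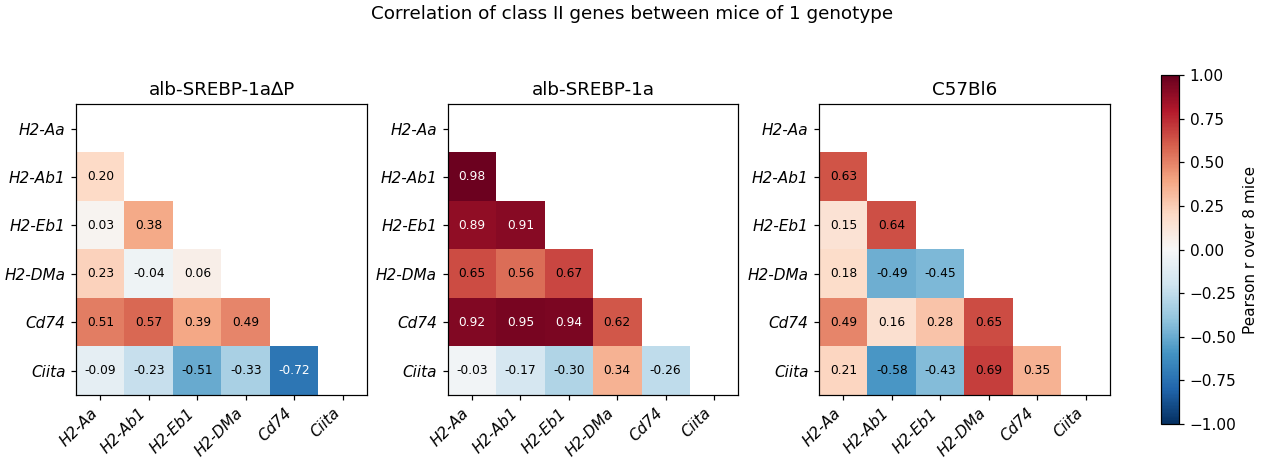
Pearson's r between pairs of class II genes over the 8 mice of alb-SREBP-1a∆P, alb-SREBP-1a and C57Bl6, each genotype apart. The block of H2-Aa, H2-Ab1, H2-Eb1 and Cd74 holds 0.89 to 0.98 in alb-SREBP-1a and lower values in the other genotypes, and the bottom line holds Ciita.

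To find genes with a like pattern, 19932 other genes were ranked by r to the mean of H2-Aa, H2-Ab1, H2-Eb1 and Cd74 over the 24 arrays after the mean of each genotype had been taken off. As the ranking chose them, these values are a description. Cxcl9, a chemokine of T cells that interferon-γ induces, came first with r = 0.92, followed by the glutathione S-transferases Gstm6 (0.89) and Gstm4 (0.86), Cks1b (0.83), a subunit of cyclin-dependent kinases, Tmem141 (0.82), the malate dehydrogenase Mdh1 (0.81), Sft2d2 (0.79), Prxl2a (0.79), the glutathione peroxidase Gpx6 (0.79) and the collagen Col14a1 (0.78). Within the genotypes Cxcl9 had r of 0.86 in alb-SREBP-1a∆P, 0.97 in alb-SREBP-1a and 0.55 in C57Bl6, while Gpx6 had 0.07 in alb-SREBP-1a∆P, 0.92 in alb-SREBP-1a and -0.0015 in C57Bl6.

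Cxcl9 ran from 7.26 to 8.26 (median 7.68) in alb-SREBP-1a∆P, from 7.52 to 9.80 (median 8.16) in alb-SREBP-1a and from 7.15 to 7.76 (median 7.54) in C57Bl6. The genotypes overlapped, and alb-SREBP-1a replicates 4 and 8 were highest in it as they were in the mean of the 4 class II genes. It was higher in alb-SREBP-1a than in C57Bl6 by 0.90 ± 0.27 log2 units (adjusted p = 0.041) and fell by 0.72 ± 0.28 between the transgenic lines, alb-SREBP-1a∆P being the lower (adjusted p = 0.0473, limma). alb-SREBP-1a∆P differed from C57Bl6 by 0.18 ± 0.13 (adjusted p = 0.257). The first of these calls was lost with centred arrays and the second with quantile normalization and cyclic loess, while the third comparison passed with quantile normalization and with cyclic loess.

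**Figure D4:**
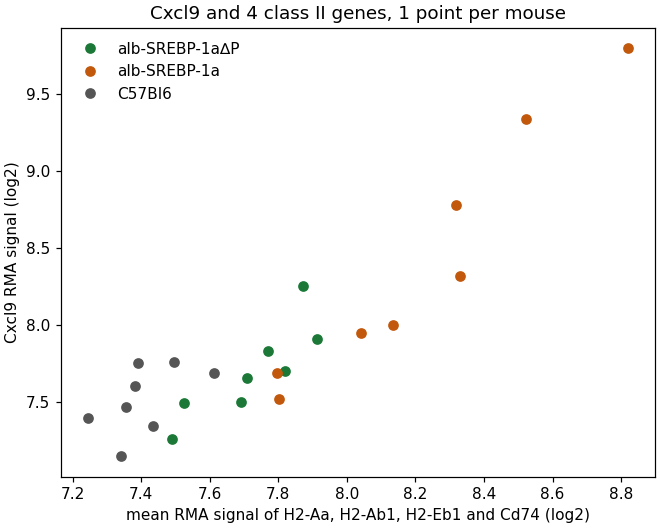
Cxcl9 signal (log2) against the mean signal (log2) of H2-Aa, H2-Ab1, H2-Eb1 and Cd74 in each of the 24 mice, colored by genotype. The 2 mice with Cxcl9 above 9 are alb-SREBP-1a replicates 4 and 8, which also have the highest class II mean.

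Of the further class II region genes H2-Ea, H2-Eb2, H2-Oa and H2-Ob, none of 4 passed in alb-SREBP-1a against C57Bl6 (median 0.07; 0 at an unadjusted p under 0.05 in limma, and 0 by the methods' test after adjustment). The signal of 3 of the 4 was called higher in alb-SREBP-1a∆P against C57Bl6, H2-Ea by 0.35 ± 0.10, H2-Eb2 by 0.30 ± 0.11 and H2-Oa by 0.26 ± 0.10 (adjusted p = 0.0104, 0.0314 and 0.0457, limma). As H2-Ea is not made on this background, its signal (mean 4.76 in alb-SREBP-1a∆P and 4.41 in C57Bl6) is not read as expression of that chain. All 4 lie below the median signal of all probe sets, and the medians in the brightness bins of these 3 were 0.27, 0.18 and 0.18. Their calls were lost with quantile normalization, with cyclic loess and with centred arrays.

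The DNA-binding factors of the class II control region (Rfx5, Rfxap, Rfxank, Nfya, Nfyb, Nfyc and Creb1) did not pass in alb-SREBP-1a against C57Bl6, 0 of 7 in limma, with a median of -0.06 (2 at an unadjusted p under 0.05, and 0 by the methods' test after adjustment). In alb-SREBP-1a∆P 6 of 7 fell against C57Bl6 and 5 of 7 against alb-SREBP-1a. In bins 8 and 9, which hold Nfyb, Creb1, Rfxank and Nfyc, 46.1% and 53.3% of probe sets were called lower against C57Bl6, and 51.6% and 62.3% against alb-SREBP-1a. Nfyb, a subunit of the NF-Y complex that binds the Y box, was lower by 0.79 ± 0.13 against C57Bl6 and by 0.79 ± 0.12 against alb-SREBP-1a (adjusted p = 9.76e-05 and 0.000256, limma), beside -0.23 and -0.27 in its bin. Rfxank fell by 0.54 ± 0.10 and Rfxap by 0.29 ± 0.07 against C57Bl6 (adjusted p = 0.000302 and 0.00437), beside -0.29 and -0.04 in their bins. Nfyc fell by 0.36 ± 0.07 against alb-SREBP-1a (adjusted p = 0.00141, limma), beside -0.31. Nfyc has 2 probe sets that carry its symbol alone, as have Cd80 and Clec4g below, and values of the brighter are given. The Rfxap call was lost with cyclic loess, and that of Nfyc with quantile normalization and with cyclic loess.

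Endosomal proteases trim antigen and the invariant chain. In alb-SREBP-1a against C57Bl6, 2 of 8 rose and 4 fell: Ifi30, the lysosomal thiol reductase, was higher by 0.77 ± 0.09 (adjusted p = 2.63e-05) and Lgmn, legumain, by 0.36 ± 0.10 (adjusted p = 0.0246), while the cathepsins Ctsl, Ctsd and Ctsh and the signal peptidase-like Sppl2a, which cleaves the invariant chain remnant, fell by 0.58, 0.46, 0.39 and 0.34 (adjusted p = 0.00275 to 0.00782, limma). None rose and 5 fell in alb-SREBP-1a∆P against C57Bl6, Ctsh by 0.89 ± 0.08 and Ctsd by 0.60 ± 0.08 (adjusted p = 3.41e-07 and 1.26e-05). All 5 are in bin 10, where 47.2% of probe sets were called lower and the median was -0.20. Against alb-SREBP-1a 5 fell, among them Ifi30 by 0.58 ± 0.09 and Ctss, the main invariant chain protease of antigen-presenting cells, by 0.43 ± 0.12 (adjusted p = 0.000224 and 0.0111, limma). In bins 8 and 10, which hold all 8 genes, 51.6% and 46.1% of probe sets were called lower between the lines. The count of 5 of 8 is not far above these shares. The bin medians were -0.27 and -0.20. The Ctss call was lost with quantile normalization and with cyclic loess.

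Interferon-γ is the classical inducer of Ciita. Of 9 measured genes of its signalling, none passed in limma in alb-SREBP-1a against C57Bl6 (median 0.05; 1 at an unadjusted p under 0.05, and 0 by the methods' test after adjustment). In alb-SREBP-1a∆P 2 fell against C57Bl6, the receptor chain Ifngr1 by 0.62 ± 0.11 and the kinase Jak2 by 0.37 ± 0.10 (adjusted p = 0.000264 and 0.00529, limma), and 4 fell against alb-SREBP-1a. The medians in the bins of Ifngr1 and Jak2 were -0.29 and -0.04 against C57Bl6, with 53.3% and 28.5% called lower. Between the lines 44.2% of all probe sets were called, 21.4% lower. In bins 9 and 10, which hold Ifngr1, Ifngr2, Jak1, Irf1 and Irf2, 62.3% and 46.1% were called lower there. Class I presentation, which carries cytosolic peptides, was measured in 11 genes. The heavy chains H2-K1, H2-D1 and H2-T23 are not among them, as their probe sets are shared with other symbols. In alb-SREBP-1a against C57Bl6, 2 of the 11 rose, the peptide transporter Tap1 by 0.36 ± 0.09 and the immunoproteasome subunit Psmb8 by 0.39 ± 0.09 (adjusted p = 0.0135 and 0.00734, limma). Of the same 11, 1 rose and 4 fell in alb-SREBP-1a∆P against C57Bl6, and against alb-SREBP-1a 1 rose and 7 fell, among them the peptide-trimming Erap1 by 0.54 ± 0.08 (adjusted p = 0.000157). In bins 8 to 10, which hold 6 of these 7, 46.1% to 62.3% of probe sets were called lower. The gene that rose in both was Nlrc5, the class I transactivator related to Ciita, by 0.80 ± 0.09 against C57Bl6 and by 0.56 ± 0.09 against alb-SREBP-1a (adjusted p = 3.79e-06 and 0.000324, limma), and in its bin 10.5% and 5.88% were called higher. These values are of the brightest of 19 probe sets that carry the symbol Nlrc5 alone, and the others are not given here.

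Of the 7 genes of costimulation and class II turnover, 1 rose in alb-SREBP-1a against C57Bl6: Cd83, a surface protein of mature dendritic cells, by 0.38 ± 0.11 (adjusted p = 0.0315, limma). In alb-SREBP-1a∆P against C57Bl6, 3 rose and 1 fell, with Cd80, a ligand of CD28, at 0.42 ± 0.12 and Cd83 at 0.40 ± 0.11 (adjusted p = 0.00772 and 0.00797). Of the 7 genes, 5 lie below the median signal, and the Cd80 and Cd83 calls in alb-SREBP-1a∆P were lost with quantile normalization, cyclic loess and centred arrays.

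**Figure D5:**
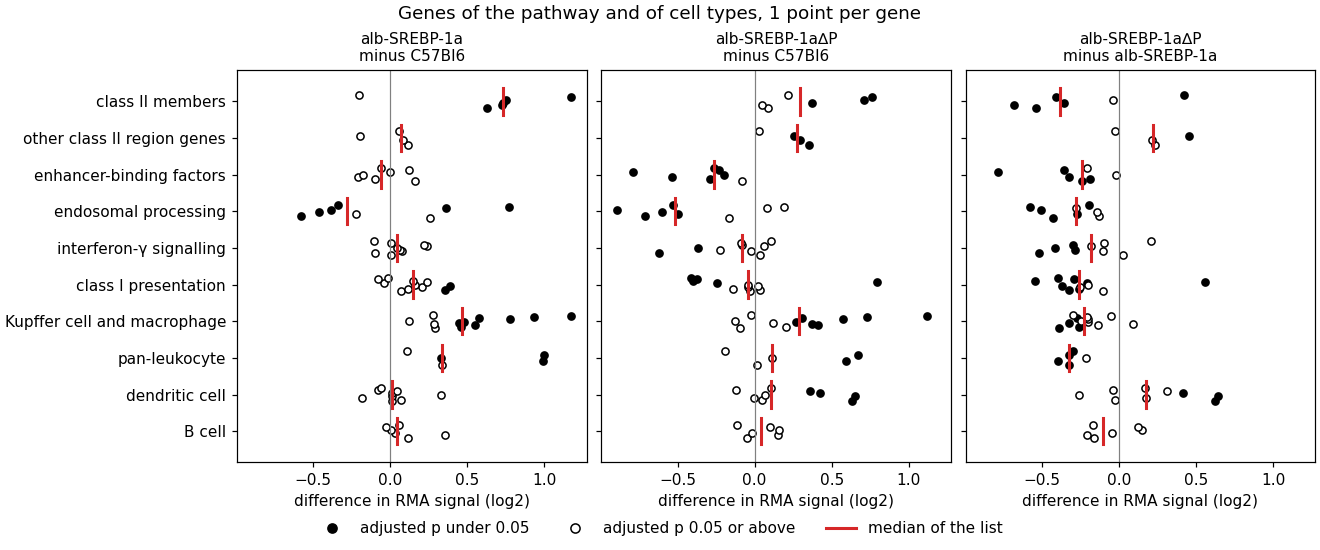
Log2 difference in RMA signal of the genes of 10 lists in the 3 comparisons, 1 point per gene, where filled points passed an adjusted p of 0.05 and red lines are list medians. In alb-SREBP-1a against C57Bl6 the medians are 0.73 for the class II members, 0.47 for Kupffer cell and macrophage markers and 0.01 for dendritic cell markers.

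Most, but not all, markers of macrophages were also higher in either transgenic line. Adgre1, Csf1r and Lyz2 passed in neither line against C57Bl6. They differed by 0.29, 0.12 and 0.27 in alb-SREBP-1a and by -0.10, -0.13 and -0.03 in alb-SREBP-1a∆P. Of 12 Kupffer cell and macrophage markers, all above the median signal, 8 rose in alb-SREBP-1a against C57Bl6, with a median of 0.47. The complement chains C1qc and C1qb rose by 1.17 ± 0.11 and 0.93 ± 0.11, Cd68 by 0.78 ± 0.10 and C1qa by 0.58 ± 0.08 (adjusted p = 3.4e-06, 4.66e-05, 0.000145 and 0.000188, limma). In alb-SREBP-1a∆P against C57Bl6 7 of 12 rose, C1qc by 1.12 ± 0.11 and Cd68 by 0.58 ± 0.12 (adjusted p = 1.39e-06 and 0.000956, limma). Against alb-SREBP-1a 4 of 12 fell and none rose. In bins 9 and 10, which hold most of these markers, 62.3% and 46.1% of probe sets were called lower between the lines. The shares called higher were 5.88% and 4.58%. Between the alb-SREBP-1a mice C1qb had another order: replicates 1 and 5 had the highest C1qb (9.67 and 9.52) and the lowest mean of the 4 class II genes (7.80 and 7.79), and replicate 4, with the highest mean (8.82), had C1qb at 9.32. The markers did not share this order: Adgre1 was lowest in replicate 5 (7.02), and C1qa was 8.11 there and 8.14 in replicate 4. Whether the list as a whole went with class II between mice was not tested. The summed signal of the list (log2) ran from 11.65 to 12.45 in alb-SREBP-1a∆P, from 11.81 to 12.45 in alb-SREBP-1a and from 11.29 to 11.87 in C57Bl6. Its part in the class II values was not tested.

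Of 5 pan-leukocyte markers 3 rose in alb-SREBP-1a against C57Bl6, Laptm5 and Cd52 each by 0.99 (SE 0.10 and 0.09, adjusted p = 1.05e-05 and 2.43e-06, limma). Ptprc and Cd53 did not pass, at 0.34 and 0.11 (adjusted p = 0.121 and 0.605, limma). In alb-SREBP-1a∆P Laptm5 and Cd52 were higher than in C57Bl6 by 0.67 ± 0.09 and 0.59 ± 0.08 (adjusted p = 1.26e-05 and 1.55e-05, limma). The other 3 did not pass there, and the list median was 0.11. Mean Ptprc was 6.23 in alb-SREBP-1a∆P and 6.22 in C57Bl6, and mean Cd53 was 6.61 and 6.80. Against alb-SREBP-1a 4 of the 5 fell. In bins 6 to 9, which hold the list, 11.4% to 62.3% of probe sets were called lower between the lines. The summed signal (log2) was 9.11 to 9.48 in alb-SREBP-1a∆P, 9.27 to 9.75 in alb-SREBP-1a and 8.64 to 9.05 in C57Bl6. In this sum either line lay wholly above C57Bl6, but the brightest marker weighs most in it. That was Laptm5, with means of 8.09 in alb-SREBP-1a∆P, 8.41 in alb-SREBP-1a and 7.42 in C57Bl6. The part of this list in the class II values was not tested either.

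Dendritic cells and B cells also bear class II. In alb-SREBP-1a none of 9 dendritic cell markers and none of 6 B cell markers passed in limma against C57Bl6, with medians of 0.01 and 0.04 (2 and 1 at an unadjusted p under 0.05, and 0 by the methods' test after adjustment). In alb-SREBP-1a∆P 4 of 9 dendritic cell markers rose against C57Bl6, among them Xcr1 by 0.65 ± 0.15, Itgax by 0.63 ± 0.16 and Cd209a by 0.43 ± 0.09 (adjusted p = 0.00184, 0.00353 and 0.000746, limma), which all lie below the median signal, and again no B cell marker, nor any at an unadjusted p under 0.05. In bins 3 and 4, which hold these 3, 40.5% and 37.1% of probe sets were called higher, so the count of 4 of 9 is near that share. These 3 calls were lost with quantile normalization and with cyclic loess. The dendritic cell list summed to 8.50 to 8.92 in alb-SREBP-1a∆P, 8.39 to 8.72 in alb-SREBP-1a and 8.42 to 8.61 in C57Bl6, with 5 of 9 markers below the median signal. The B cell list, with 5 of 6 below it, summed to 7.57 to 7.93 in alb-SREBP-1a∆P, 7.62 to 7.98 in alb-SREBP-1a and 7.57 to 7.82 in C57Bl6. Of 7 markers of T cells, which read class II, 2 were called higher in alb-SREBP-1a∆P (median 0.22) against C57Bl6. In alb-SREBP-1a it was 1 of 7 (median 0.02). Over all probe sets 27.0% and 6.77% were called higher in these comparisons, so the count of 2 of 7 is near that share. Of the 7 markers, 5 lie below the median signal.

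Sinusoidal endothelial cells of the liver can carry class II as well. Of 6 of their markers, 1 rose in alb-SREBP-1a against C57Bl6, the scavenger receptor Stab2 by 0.21 ± 0.06 (adjusted p = 0.0253, limma). In alb-SREBP-1a∆P 2 fell against C57Bl6, the lectin Clec4g by 0.54 ± 0.11 (adjusted p = 0.000868), and 4 fell against alb-SREBP-1a, Stab2 by 0.29 ± 0.07 (adjusted p = 0.00401, limma). In bin 10, that of Clec4g, 47.2% of probe sets were called lower against C57Bl6, with a median of -0.20. Between the lines 62.3% were called lower in bin 9, which holds Stab2, Fcgr2b and Kdr. Its median was -0.31, near the value of Stab2. The Stab2 call against C57Bl6 was lost with centred arrays, and that between the lines with quantile normalization and with cyclic loess. The summed signal (log2) was 10.36 to 10.75 in alb-SREBP-1a∆P, 10.61 to 10.98 in alb-SREBP-1a and 10.63 to 11.04 in C57Bl6. Of 6 neutrophil markers none passed in alb-SREBP-1a against C57Bl6 (0 at an unadjusted p under 0.05 in limma, and 0 by the methods' test after adjustment). In alb-SREBP-1a∆P 5 rose against C57Bl6, Mmp8 by 0.50 ± 0.11 and S100a9 by 0.49 ± 0.14 (adjusted p = 0.00192 and 0.0075), and 5 against alb-SREBP-1a, Retnlg by 0.49 ± 0.10 (adjusted p = 0.00154, limma). 5 of the 6 lie below the median signal. In bins 2 and 3, which hold S100a8, Retnlg, Mmp8 and Ly6g, 43.6% and 40.5% of probe sets were called higher against C57Bl6. Against alb-SREBP-1a it was 34.6% and 38.3%. The medians of these bins were 0.32 and 0.27 against C57Bl6, and 0.28 in both against alb-SREBP-1a. In bin 7, that of S100a9, 16.7% and 16.2% were called higher in these comparisons. The calls of Mmp8 and Retnlg were lost with quantile normalization and cyclic loess, and that of S100a9 with centred arrays. Whether either list has a part in the class II values was not tested.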

How the data were processed

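The authors hybridized liver RNA (150 ng) of 24 mice, 1 Mouse Gene 1.0 ST array each, and made RMA values with Expression Console. The deposited values are log2 signals per probe set. All 35556 probe sets were tested with limma 3.58.1 (R 4.3.3) in separate fits of 8 against 8 arrays without covariates, with Benjamini-Hochberg adjustment and a threshold of 0.05. Genes were named from the platform annotation in GEO: 21789 probe sets have 1 symbol, 1621 several and 12146 none. Within a genotype, members were correlated with two-sided exact permutation tests (scipy 1.17.1). The fit was tested on simulated data. The members, gene lists and tests were chosen with earlier results of these data known. Named were all members, up to 4 genes per other list and comparison with the smallest p, and the 10 genes most like the members. Lgmn and Sppl2a in alb-SREBP-1a were added after their values were seen. Adgre1, Csf1r, Lyz2, Ptprc and Cd53 were added later still and are in none of the counts of alternatives or of outlying mice. The alternatives were the normalization, dim probe sets left out, other variance models, the methods' t-test (1.5-fold and unadjusted 0.05), a replicate block, and arrays left out. Scan batches and RMA settings were not stated.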

Additional observations from a re-analysis of the deposited data

Results flagged for a closer look

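In 8 of 129 groups of 8 mice (43 genes in 3 genotypes), 1 mouse lay far from the other 7, with a gap to its nearest neighbor that was larger, as a share of the range of the group, than Dixon's 95% critical value; chance gives about 5% of groups. For the members these were H2-DMa in alb-SREBP-1a replicate 4, at 6.92 beside 6.54 in the next mouse, and H2-DMa in C57Bl6 replicate 3, at 6.29 beside 5.71. Without the first of them the H2-DMa difference between alb-SREBP-1a and C57Bl6 was 0.68, and without the second it was 0.84. Among the other genes named, the highest mouse stood off for Laptm5 in alb-SREBP-1a∆P replicate 1 (8.42), Cd52 in C57Bl6 replicate 8 (6.23) and Itgax in C57Bl6 replicate 4 (5.26). The lowest stood off for C1qb in alb-SREBP-1a∆P replicate 2 (8.67), Nfyc in alb-SREBP-1a replicate 5 (7.99) and H2-Oa in alb-SREBP-1a replicate 3 (3.95).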

How the results depend on the processing

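Of 288 member values with 1 array left out, 272 kept their direction and side of the threshold, and of 210 under the other settings 187 did. For the other genes named it was 353 of 397 values, under settings that were added for them after the data had been seen. In alb-SREBP-1a∆P against C57Bl6, H2-Aa (-0.073) and H2-Ab1 (-0.11) turned with centred arrays. H2-Ab1 also turned without C57Bl6 replicate 3, in a range of -0.0015 to 0.092 over single arrays left out. Between the transgenic lines H2-DMa turned without alb-SREBP-1a replicate 4, in a range of -0.078 to 0.035.

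Leaving out single arrays gave 5 members called in alb-SREBP-1a against C57Bl6, 3 to 4 in alb-SREBP-1a∆P against C57Bl6 and 4 to 5 between the lines, with 3020 to 3799, 15009 to 16939 and 13395 to 16594 probe sets. With alb-SREBP-1a∆P set against C57Bl6, cyclic loess called 5 members and 11117 probe sets, and 1 member and 7706 probe sets between the lines, where quantile normalization called 1 and 8319. Without probe sets below the median level 9858 and 10136 probe sets were called in these 2 comparisons. The methods' t-test at the methods' thresholds called 1317 probe sets in alb-SREBP-1a against C57Bl6, 5925 in alb-SREBP-1a∆P against C57Bl6 and 4098 with 1 member between the lines, and after adjustment 3807, 16404 and 15319. Array weights called 5087 probe sets in alb-SREBP-1a against C57Bl6. The cause of these shifts was not tested.

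The share of higher calls was 63.0% in alb-SREBP-1a against C57Bl6 and 51.6% with quantile normalization. It was 57.1% in alb-SREBP-1a∆P against C57Bl6, and 40.6% with quantile normalization and 31.9% with centred arrays. Between the lines it was 51.6%, and 41.1% and 23.9% with the same settings. The median over all probe sets when alb-SREBP-1a∆P was set against C57Bl6 was 0.11, and -0.03 with quantile normalization, -0.05 with centred arrays and -0.0043 with cyclic loess.

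Same-numbered mice of different genotypes deviated together with r of -0.12 to 0.28, and 20.8% of arrays were closest to their own number, so the numbers do not pair the samples. With the replicate number as a block, 5 members and 3163 probe sets were called in alb-SREBP-1a against C57Bl6, 3 and 16207 with alb-SREBP-1a∆P in its place, and 4 and 13749 between the lines, where H2-Eb1 was lost (adjusted p = 0.0663, limma). Of the other genes named, the block also lost Cd83 in alb-SREBP-1a, H2-Oa in alb-SREBP-1a∆P and Cxcl9 between the lines. Of 6 correlations that passed, 0 passed without the 2 arrays farthest from the median, but the smallest exact permutation p for 6 mice is 0.00139, or 0.0625 after adjustment for 1 pair alone, so that this count says nothing about stability; their r stayed at 0.82 to 0.96.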
